A study of Schmidtea mediterranea with 152 samples.

Results

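wnt11-2 encodes a secreted Wnt ligand of the planarian tail, and its reads were followed here in every single cell of a study of the posterior pole of Schmidtea mediterranea, a flatworm that regrows missing body parts. The gene was chosen by its contig number in the transcriptome assembly (dd_Smed_v4_16209), which had 1 row in the count table and is 1 of 26399 transcripts used. Starved animals of the asexual CIW4 strain gave single non-dividing cells from the midline of the uninjured tail tip, or from the midline of the posterior blastema (the new tissue at the cut) 72 h after a transverse cut. All cells were sorted 1 per well and screened by qRT-PCR. A pole cell was positive for collagen, a muscle gene, and for wnt1, the ligand that marks the posterior pole. A non-pole cell was positive for collagen and negative for wnt1. The labels name no genetic change in any group, and no source used here gives the number of animals. The table held more libraries than the study's methods describe: 7 and 65 labelled as pole and non-pole cells of the uninjured tail, and 5 and 75 of the blastema. In the uninjured tail 6 pairs of non-pole libraries were near-identical and counted as 1 cell each. After 12 cells with few reads were left out, all 12 pole cells remained, with 53 non-pole cells of the uninjured tail and 69 of the blastema.

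Wnt proteins are secreted, with the help of the membrane protein Evi/Wls, and bind Frizzled, Ror or Ryk receptors on neighbouring cells. Signalling through beta-catenin sets tail identity in planarians, and it is held back by secreted inhibitors such as Notum and the sFRPs. Planarian muscle cells make many of these signals and so carry positional information along the body axis, with the posterior pole being a small group of wnt1-expressing muscle cells at the midline of the tail tip. wnt11-2 is expressed around the tail tip and its loss is known to disturb tail patterning.

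The screen that set pole apart from non-pole cells read wnt1 and collagen, not wnt11-2, so the level of wnt11-2 was not fixed by the choice of cells. Its primers, from the study's primer list, are shown because they define the classes compared, each 5′ to 3′ in lower case with no part marked.
wnt1 forward: gtgacattatgctcaaaggatttcc
wnt1 reverse: acggacagtgtgataacttaaacg
collagen forward: ggtgtacttggagacgttggttta
collagen reverse: ggtctaccttctcttcctggaac

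Each group is 1 sample, since animals, plates and batches are not labelled, and cells are not replicates. No test was therefore run and no p-value is given. Levels are counts per 1000000 reads on the transcripts used (CPM). Intervals are 95% intervals, exact Poisson for reads, exact binomial for ratios of reads and Clopper-Pearson for shares of cells. Those for reads cover counting error only, because the reads are PCR copies without molecular identifiers. Those for shares treat the cells as independent draws and do not cover differences between animals. Kept cells had 51801 to 4132918 reads. The median depth of pole cells was 648498 reads in the uninjured tail and 906071 in the blastema, and that of non-pole cells 444246 and 218403 reads. All 12 collagen contigs had reads in every group, as did 11 or 12 of the 12 contractile contigs. Beside muscle, 1 or 2 of 3 neuron markers and 1 to 4 of 6 cilia markers had reads, with group levels of 74.2 to 250 CPM and 7.36 to 80.3 CPM. The part of these other cell types in the values of wnt11-2 was not tested. Pole libraries had wnt1 reads in all 12 cells, but uninjured pole replicate 1 had only 2 wnt1 reads and 472 CPM of the summed collagens, against 17979 CPM or more in the other 6.

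In uninjured pole cells wnt11-2 was present in the minority. Replicate 4 held 232 CPM and replicate 2 held 194 CPM, each from over 100 reads. Replicate 3 held 1 read, or 2.31 CPM. The other 4 cells, replicates 1, 5, 6 and 7, held none. Replicates 5, 6 and 7 were the deepest cells of the group, with 2601224 to 4132918 reads. The limits that 3 reads would set in these libraries were 0.726 to 1.15 CPM. Such limits cover the sampling of reads only, and loss of the transcript before sequencing was not tested. In replicate 1, of 84813 reads, that limit was 35.4 CPM. The group thus held 2 cells near 200 CPM, 1 cell with a trace, and 3 deep cells whose libraries held no read, at limits of about 1 CPM. Because the 3 deepest cells carried 85.9% of the group's reads, the summed level was 20.3 CPM (17.8 to 23.1) while the mean over cells was 61.2 ± 104.3 CPM (SD over 7 cells) and the median 0. Without replicate 1, whose collagen and wnt1 were low, 3 of 6 cells held a read and the mean was 71.4 CPM. Without the 3 deepest cells, an alternative added after the values were seen, the summed level was 144.4 CPM.

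In regenerating pole cells it was present in all but 1. Replicates 1, 2, 3 and 5 held 221, 411, 453 and 436.2 CPM, from 46, 393, 443 and 261 reads. Replicate 4 held none in 906071 reads, a limit of 3.31 CPM, while it held 1843 CPM of wnt1 and 36944 CPM of the summed collagens. The levels of the 4 holding cells spanned a 2.05-fold range. The summed level of the 5 cells was 313 CPM (296 to 332), the mean 304 ± 194 CPM (SD) and the median 411 CPM. None of the pole cells, in either condition, reached 500 CPM, a level passed by 8 of 53 uninjured and 9 of 69 regenerating non-pole cells. With 7 and 5 pole cells, a share of up to 40.96% and 52.2% above that level is within the Clopper-Pearson intervals.

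**Figure D1:**
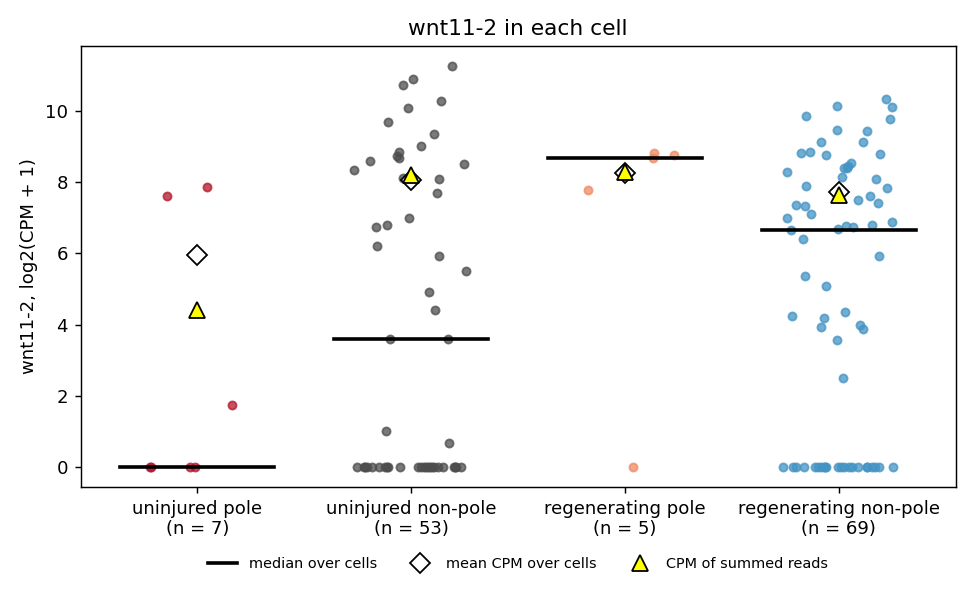
wnt11-2 in each kept cell, as log2(CPM + 1), by group (dots), with the median over cells (line), the mean CPM over cells (diamond) and the CPM of the summed reads (triangle). The uninjured pole cells lie at 0 in 4 of 7, and their triangle (20.3 CPM) is below their diamond (61.2 CPM); 4 of the 5 regenerating pole cells lie between 221 and 453 CPM.

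Non-pole muscle cells of the uninjured tail held wnt11-2 in about as many cells as not, at levels that ranged widely. A read was present in 29 of 53 cells (54.7%, 40.4 to 68.4), and the lowest, median and highest levels over all 53 were 0, 10.96 and 2466 CPM. Among the 29 holding cells the levels ran from 0.605 to 2466 CPM with a median of 276 CPM, and 2 of them rested on 3 reads or fewer. A few cells carried most of the signal. Replicate 50 alone gave 3202 of the 12675 reads (25.3%), and 3 cells gave over 50% of them. The summed level was 293 CPM (288 to 298), or 225 CPM without replicate 50, and the mean was 266 ± 522 CPM (SD over 53 cells).

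In non-pole cells of the blastema the share was larger, with an interval that overlaps the former, and the highest levels were lower. A read was present in 47 of 69 cells (68.1%, 55.8 to 78.8), and the lowest, median and highest levels over all cells were 0, 100.7 and 1288 CPM. The 47 holding cells ran from 4.598 to 1288 CPM with a median of 179 CPM. The leading cell, replicate 56, gave 16.8% of the 4045 reads, and 7 cells were needed for 50% of them. The summed level was 199 CPM (193 to 205) and the mean 210 ± 304 CPM (SD over 69 cells). The coefficient of variation over cells was 1.96 in uninjured and 1.45 in regenerating non-pole cells.

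Shares were also taken with all cells thinned to the same 50000 reads, which makes cells of unlike depth comparable. In the uninjured tail, 2 of 7 pole cells (28.6%, 3.67 to 70.96) and 26 of 53 non-pole cells (49.1%, 35.1 to 63.2) then held a read. In the blastema it was 4 of 5 pole cells (80%, 28.4 to 99.5) and 46 of 69 non-pole cells (66.7%, 54.3 to 77.6). The intervals of all 4 groups overlapped. Without thinning, 10 of 26 uninjured non-pole cells under the median depth held a read, and 19 of 27 at or over it. After thinning these were 10 of 26 and 16 of 27, so a gap remained at equal read number. In blastemas the unthinned numbers were 22 of 34 and 25 of 35.

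**Figure D2:**
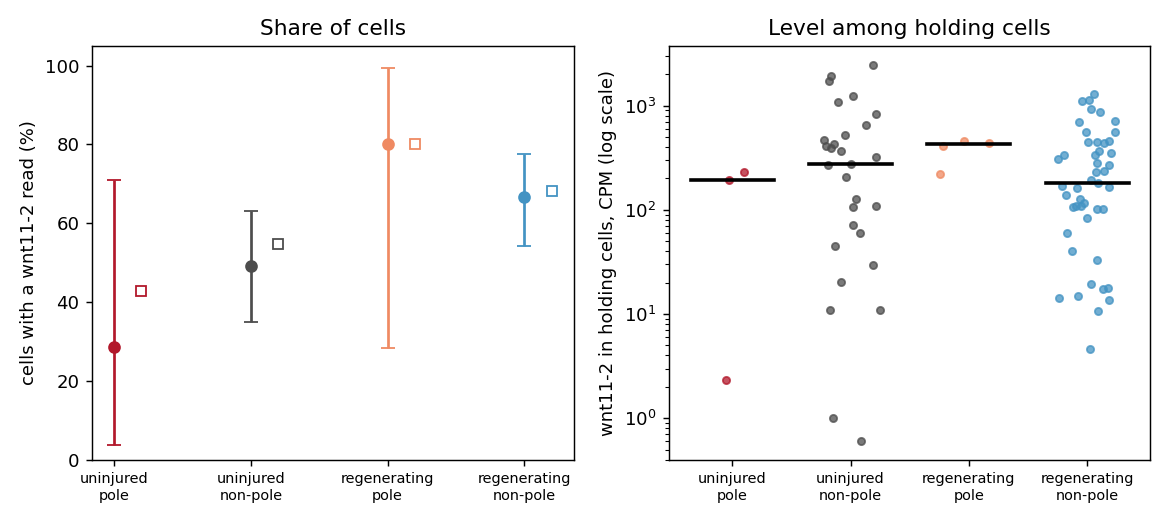
Left, share of cells with a wnt11-2 read after thinning to 50000 reads (filled circles, with 95% Clopper-Pearson intervals) and with all reads (open squares). Right, level in each cell that holds a read, in CPM on a log scale, with the median of these cells (line): the medians are 194, 276, 424 and 179 CPM from left to right.

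The order of the groups depended on the measure. By the mean over cells it was regenerating pole (304 CPM), uninjured non-pole (266 CPM), regenerating non-pole (210 CPM) and uninjured pole (61.2 CPM). The summed reads gave the same order. Each difference between neighbours in that order was smaller than the larger of their SDs over cells. With TMM scaling the summed level of uninjured non-pole cells stood first. With all counted reads as the total they stood first by both measures, with means of 144.5 CPM against 95.2 CPM in regenerating pole cells. Without cells under 5000 CPM of collagen they also stood first by both, at 332.6 against 313.4 CPM summed and means of 344.5 against 304.3 CPM. By the median over cells, regenerating non-pole cells (100.7 CPM) stood above uninjured non-pole cells (10.96 CPM). The share of cells with the transcript was thus larger among blastema non-pole cells, with overlapping intervals, and the holding cells were higher, by their median, in the uninjured tail. Without cells under 5000 CPM of collagen, the shares were 70.7% in uninjured and 71.4% in regenerating non-pole cells. After thinning they were 63.4% and 71.4%.

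Whether pole cells differ from their neighbours in wnt11-2 was asked within each condition. In uninjured tails the summed level was 14.4-fold lower in pole than in non-pole cells (12.6 to 16.4), a log2 ratio of -3.78 with 1 CPM added to both. With each cell given the same weight the means differed 4.36-fold, a log2 ratio of -2.10. Of 19372 transcripts with at least 20 reads in all, 48.1% were lower by 2-fold or more in this comparison and 18.9% higher, and the median log2 ratio of all of them was -0.91. A lower value in uninjured pole cells was therefore common. The log2 ratio of wnt11-2 stood at percentile 11.4 of all transcripts by summed reads and at 28.7 by means. The 3 holding pole cells lay within the range of the holding non-pole cells, and without the 3 deepest pole cells the log2 ratio was -1.01.

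In blastemas the direction was the opposite. The summed level was 1.58-fold higher in pole than in non-pole cells (1.48 to 1.69), a log2 ratio of 0.66, and the means differed 1.45-fold, a log2 ratio of 0.54. Neither passed 2-fold, a size passed upward by 13.2% and downward by 37.8% of transcripts, and the median log2 ratio of all transcripts was -0.43. The value rested on how the libraries were scaled and on 1 cell. With TMM scaling the log2 ratio was 0.22, with all counted reads as the total it was 0.98, and without replicate 4, the pole cell with no read, it was 1.07. The 4 holding pole cells lay inside the range of the holding non-pole cells. Whether the conditions differ in the direction of the pole was not tested, since there is 1 sample a group.

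Regenerating cells were set against uninjured cells of the same class to ask how wnt11-2 stands 72 h after the cut. Among pole cells the summed level was 15.4-fold higher in the blastema (13.4 to 17.8), with a log2 ratio of 3.88, and the means differed 4.97-fold, with a log2 ratio of 2.30. Without the 3 deepest uninjured pole cells the log2 ratio of summed reads was 1.11. In this comparison 23.4% of transcripts were higher by 2-fold or more. The cells of both groups overlapped, since replicate 4 of the blastema held no read and replicate 4 of the uninjured tail, at 232 CPM, exceeded replicate 1 of the blastema, at 221 CPM. Among non-pole cells the summed level was 1.47-fold lower in the blastema (1.42 to 1.53), a log2 ratio of -0.56, and the log2 ratio of means was -0.35. These did not pass 2-fold. Without uninjured replicate 50 the ratio shrank to -0.18, and with all counted reads as the total it was -1.50. The comparisons share groups and are not independent of each other.

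wnt11-2 was found almost wholly in cells rich in collagen. Summed over 12 collagen contigs, 12 of the 53 uninjured non-pole cells were under 5000 CPM, and 0 of these 12 held a wnt11-2 read, with an upper limit of 26.5% by the Clopper-Pearson interval. All 29 holding cells were among the other 41 (70.7%, 54.5 to 83.9). In blastemas 6 of the 69 non-pole cells were under 5000 CPM. Of these 6, 2 held a single wnt11-2 read each, and the other 45 holding cells were among the 63 collagen-rich cells (71.4%, 58.7 to 82.1). Among collagen-rich non-pole cells the share with a read was thus 70.7% in uninjured and 71.4% in regenerating tissue before thinning, and 26 of 41 and 45 of 63 after it. The low-collagen cells included 6 of 12 uninjured and 5 of 6 regenerating cells with at least 100 CPM of agat-1, a gene of epidermal progenitors, against 2 of 41 and 0 of 63 of the collagen-rich ones. They were labelled as muscle like the rest. Their median depth was 320364 reads in uninjured and 241876 in regenerating tissue, and that of the collagen-rich cells 562570 and 218403 reads. The part of these cells in the group levels is seen by leaving them out. Over the 41 and 63 collagen-rich cells the mean level was 344 ± 571 and 229 ± 311 CPM (SD), and the median 72.2 and 108.7 CPM.

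**Figure D3:**
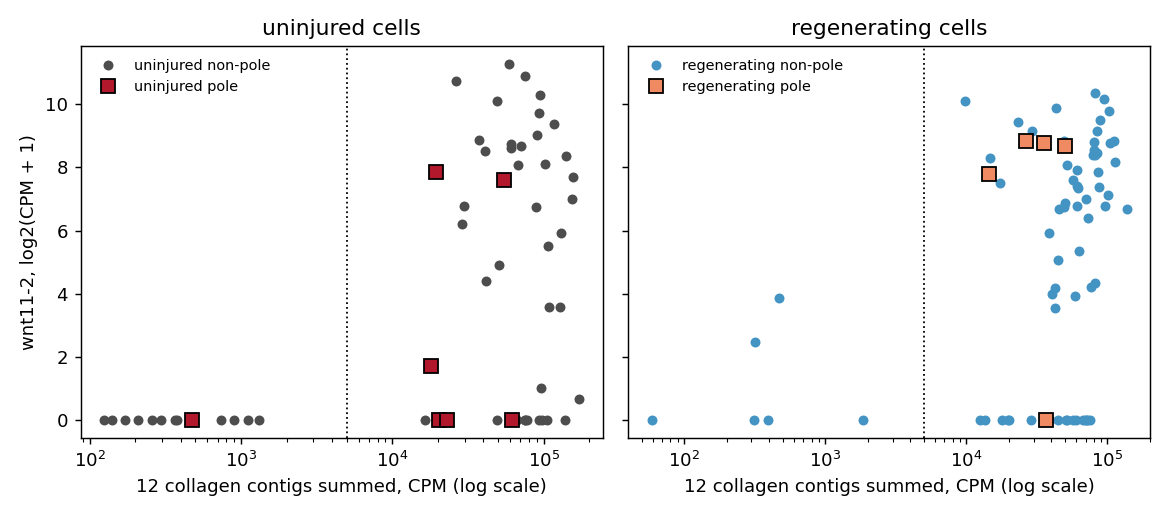
wnt11-2 as log2(CPM + 1) against the summed CPM of 12 collagen contigs (log scale) in each cell, with uninjured cells left, regenerating cells right, pole cells as squares and a dotted line at 5000 CPM. Left of the line no uninjured cell holds a read and 2 regenerating cells hold 1 read each.

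wnt1 and wnt11-2 were read in sets of cells that overlapped only in part. Of the 12 pole cells, all with wnt1 reads, 7 held wnt11-2. In uninjured pole cells the 3 that held it had 1474 CPM (replicate 2), 2844 CPM (replicate 3) and 586 CPM (replicate 4) of wnt1, and the 4 without it had from 23.6 to 2667 CPM. In regenerating pole cells wnt1 ran from 1416 to 3387 CPM, and the cell without wnt11-2 had 1843 CPM. The level of wnt1 thus did not separate pole cells with wnt11-2 from those without. A wnt1 read was also present in 6 of the 53 uninjured non-pole cells, of which 5 held wnt11-2. Replicate 5 had the most, with 47 wnt1 reads (224 CPM) and 1903 CPM of wnt11-2, the second-highest cell of that group. In blastemas 3 of 69 non-pole cells had a wnt1 read, at most 2 reads each, and 1 of them held wnt11-2. After thinning, 2 of 3 uninjured and 0 of 2 regenerating non-pole cells with wnt1 held wnt11-2. Of all thinned non-pole cells, 26 of 53 and 46 of 69 did. Without the non-pole cells that had any wnt1 read before thinning, the summed level of wnt11-2 was 279 CPM in uninjured and 209 CPM in regenerating non-pole cells.

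**Figure D4:**
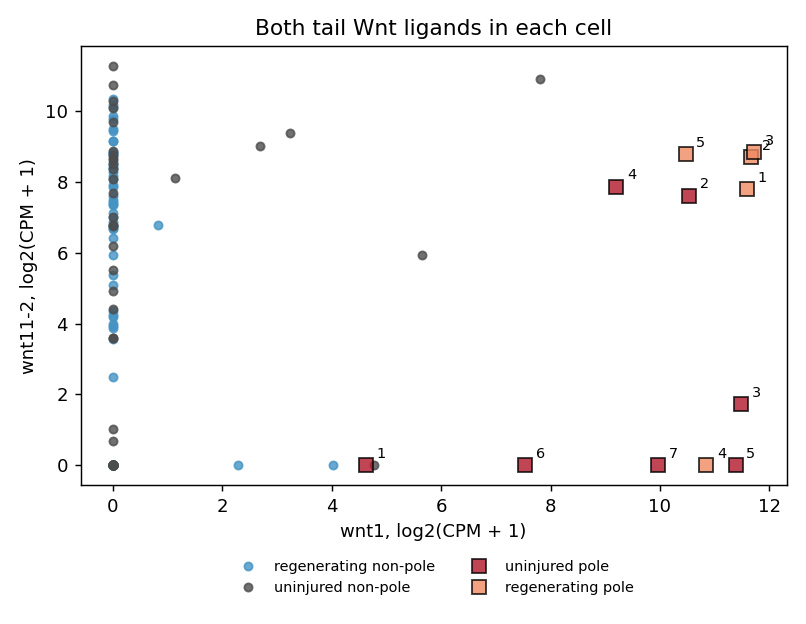
wnt11-2 against wnt1 in each cell, both as log2(CPM + 1), with pole cells as squares numbered by replicate and non-pole cells as dots. Of the pole cells 7 hold wnt11-2 and 5 do not, and replicate 1 of the uninjured tail lies at 23.6 CPM of wnt1, left of 3 non-pole cells. Apart from 9 cells with a wnt1 read, non-pole cells lie at 0 wnt1, from 0 to 2466 CPM of wnt11-2.

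The near-identical libraries were compared for wnt11-2, though no label says that a pair came from 1 cell. In 3 of the 6 pairs neither library held wnt11-2, and in the other 3 both did. Replicates 57 and 58 had 115.4 and 102.5 CPM, a ratio of 0.889 (0.463 to 1.68). Replicates 54 and 55 had 325 and 442 CPM, a ratio of 1.36 (0.912 to 2.05). Replicates 34 and 35, at 38.3 and 113.5 CPM, differed 2.96-fold (1.55 to 5.97), more than counting error. Presence was the same in 6 of 6 pairs, while the level moved most in the pair with 14 and 34 reads. Because the pairs were picked for like counts across transcripts, agreement was in part built in and does not measure technical error.

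The other Wnt genes were counted by role from a list of 17 contigs that the study's annotation ties to the pathway, of which 16 had at least 20 reads and the Frizzled contig fz5/8-3 had 1. Between pole and non-pole cells of uninjured tails, 4 of the 16 were higher by 2-fold or more, 5 lower and 7 neither, beside the 18.9% and 48.1% of all transcripts. In blastemas 5 were higher, 9 lower and 2 neither, beside 13.2% and 37.8%. The median log2 ratio of the list was -0.20 and -1.58, or -0.48 and -1.49 with members at 0 reads set at the limit of 3 reads, where all transcripts had -0.91 and -0.43. Among the ligands wnt1, whose difference the screen set, was 1432 against 1.96 CPM in uninjured and 2626 against 0.196 CPM in regenerating pole and non-pole cells. Of the 6 Wnt genes, wnt11-2 included, that were lower past 2-fold in the uninjured pole, wnt11-2 alone had a positive log2 ratio in the blastema, under TMM scaling too.

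Genes that let cells export Wnt proteins were counted by summed reads. Of 2 contigs, 1 was higher past 2-fold in pole cells of the uninjured tail and both in the blastema. Of all transcripts, 18.9% and 13.2% were higher by as much. The contig dd_Smed_v4_11629 of Evi/Wls had 169 CPM in uninjured pole against 31.1 CPM in non-pole cells, and 148.4 against 29.8 CPM in blastemas, log2 ratios of 2.40 and 2.28. The other Evi/Wls contig, dd_Smed_v4_9546, had log2 ratios of 0.31 and 1.44. By means over cells these were 1.98 and 1.62, so both contigs passed 2-fold in the uninjured tail by that measure. Thinned non-pole cells with wnt11-2 held the first contig in 9 of 26 uninjured and 24 of 46 regenerating cells, and those without wnt11-2 in 3 of 27 and 4 of 23. For the second contig these were 14 of 26 and 33 of 46, against 9 of 27 and 10 of 23. The 27 include all 12 uninjured non-pole cells low in collagen, and the part of these cells in the gap was not tested. All are counts of cells of 1 sample and share the libraries.

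Receptors were lower in pole cells or passed 2-fold in neither condition. ror, a receptor tyrosine kinase that binds Wnts, had 0 reads in the 7 uninjured pole cells while non-pole cells had 212 CPM. Set at 3 reads in the group, its summed level was at least 822-fold lower. That bound rests on read depth, since 3 of the 7 cells carried 85.9% of the group's reads. In blastemas it had 14.5 CPM, in 2 of 5 pole cells, against 206 CPM. Of the non-pole cells, 24 of 53 in the uninjured tail and 34 of 69 in the blastema had a read. ryk, another Wnt receptor, was lower in pole cells of both conditions, with log2 ratios of -2.17 and -4.08, but only 6 of 53 uninjured and 10 of 69 regenerating non-pole cells had a read. The Frizzled contigs fz5/8-4, fz5/8-2 and FZD5 had 0 reads in all pole cells, and the most frequent, fz5/8-4, had reads in 4 of 53 uninjured and 13 of 69 regenerating non-pole cells. Frz-d, annotated as a Frizzled, was read in every pole cell, in 48 of 53 uninjured non-pole cells and in 66 of 69 of the blastema, with log2 ratios of 0.61 and 0.15. The latter turned negative under TMM scaling.

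Of 4 secreted inhibitors of Wnt, 2 were lower past 2-fold in pole cells of the uninjured tail and 3 in the blastema. Of all transcripts, 48.1% and 37.8% were lower by as much. notum, which encodes an enzyme that inactivates Wnts, had 0 reads in both pole groups and 16.5 and 8.69 CPM in non-pole cells, where it was read in only 5 of 53 uninjured and 7 of 69 regenerating cells. sfrp-3, of the family of secreted Frizzled-related proteins, had log2 ratios of -1.58 and -4.56. sfrp1, of the same family, was at 0 in both pole groups and at 0.139 CPM in uninjured and 42.96 CPM in regenerating non-pole cells. The exception was a wif-like contig, related to the Wnt-binding WIF proteins. It had 363 reads in 2 of the 5 regenerating pole cells (99.5 CPM) and 1 read in all other cells together.

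Components that act in receiving cells differed among themselves. beta-catenin-1, the transcriptional effector of the pathway, passed 2-fold in neither pole comparison, with log2 ratios of -0.47 and 0.52. NLK-1, a kinase of the Nemo-like family, was higher in pole cells, with log2 ratios of 1.82 and 1.57. Vang-2, a membrane protein of planar cell polarity, had log2 ratios of 3.28 in uninjured and -1.31 in regenerating cells, or 1.23 and -1.59 by means over cells.

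**Figure D5:**
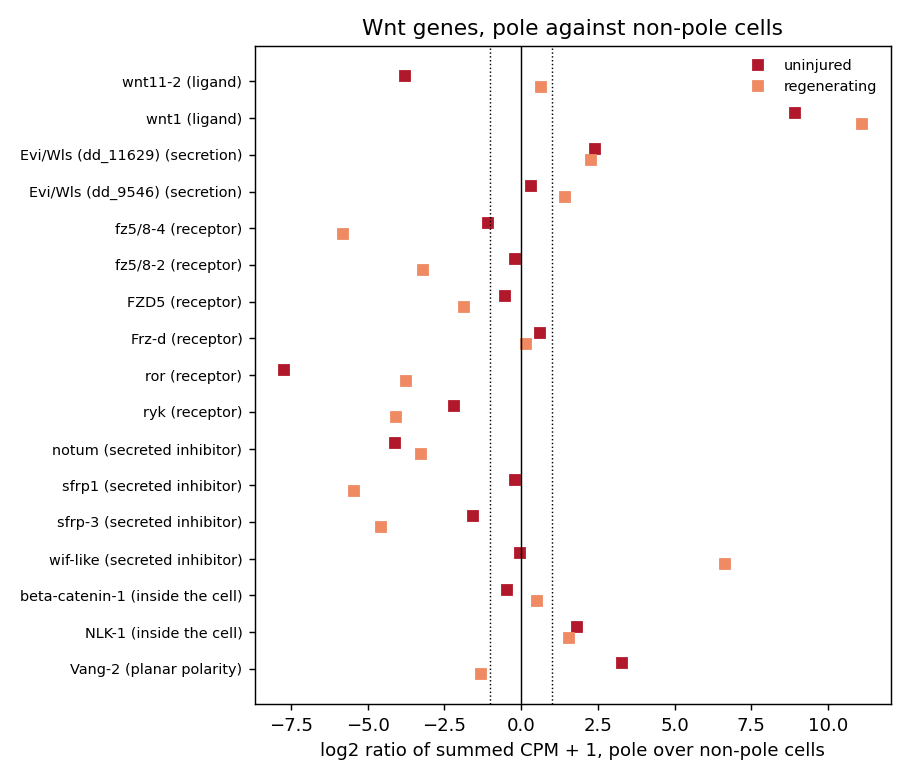
log2 ratio of summed CPM + 1, pole over non-pole cells, for wnt11-2 and the 16 other measured Wnt genes, with their roles, in uninjured and regenerating tissue (dotted lines mark 2-fold). wnt11-2 lies at -3.78 in uninjured and 0.66 in regenerating tissue, while wnt1 lies far right in both.

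Between regenerating and uninjured non-pole cells, 7 of the 16 Wnt genes were higher by 2-fold or more, 1 lower and 8 neither. Of all transcripts, 19.9% were higher by as much, and 5622 of the 19372 were lower by as much. The lower gene was wnt1, and the screen had picked both groups as negative for it. It had 85 reads in 6 of 53 uninjured cells and 4 reads in 3 of 69 regenerating cells. Uninjured replicate 5 alone held 47 of the 85. The 7 higher ones were fz5/8-4, fz5/8-2, FZD5, ryk, sfrp1, beta-catenin-1 and Vang-2. wnt11-2, with a log2 ratio of -0.56, was not among them. beta-catenin-1 was the most widely read of the 7, in 25 of 53 uninjured and 50 of 69 regenerating cells, at 94.1 and 207 CPM. fz5/8-2 was read in only 1 uninjured and 2 regenerating cells and FZD5 in 1 and 3, so their ratios rest on few cells. With each cell at the same weight, ryk and Vang-2 had log2 ratios of 0.33 and 0.67, below 2-fold.

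Genes of the posterior pole and of body position gave a frame for these values. The transcription factor genes pitx and islet1 were higher in pole cells of both conditions, with log2 ratios of 8.04 and 9.25 for pitx and 4.86 and 4.15 for islet1. otxb-like, a homeobox gene of the pole, had 4.46 and 7.38. pitx was read in all 12 pole cells, 7 of which held wnt11-2. In thinned non-pole cells pitx was read in only 3 of 53 uninjured and 5 of 69 regenerating cells. Of these, 0 and 4 held wnt11-2. With all reads, 2 of 6 and 6 of 9 did. nr4A, a nuclear receptor of muscle at both body ends, had log2 ratios of 1.77 and -0.14. The first was 0.83 by means over cells and came from 2 of 7 pole cells. After thinning, nr4A was read in 9 of 26 non-pole cells with wnt11-2 and 6 of 27 without it in the uninjured tail, and in 30 of 46 and 11 of 23 in the blastema. The 27 include all 12 uninjured non-pole cells low in collagen. follistatin, an activin inhibitor, had log2 ratios of 1.26, read in 1 of 7 uninjured pole cells and 0.86 by means, and 4.96, read in all 5 regenerating pole cells. prep, a homeobox gene of the head, had log2 ratios of -1.75 and -6.31, the first of which was 0.58 by means over cells. ndk, a gene of head position in planarians, was read in at most 4 cells of any group.

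The transcripts that varied most like wnt11-2 over non-pole cells included 4 collagens and a calponin. Across 8998 transcripts read in at least 10% of the cells of both non-pole groups, Pearson's r of log2(CPM + 1) was computed over 53 uninjured and 69 regenerating cells and ranked by the lower value. The 10 highest had a lower r of 0.41 to 0.46. Among them were the collagens COL24A1, COL11A1, COL4A6 and COL1A2, the calponin CNN2, an actin-binding protein of muscle, and the contigs dd_Smed_v4_2265, dd_Smed_v4_7811, dd_Smed_v4_8867 and dd_Smed_v4_7046, to which the study's annotation gives no name. The highest in uninjured cells was dd_Smed_v4_7811 at 0.60, with 0.44 in blastemas. It was read in 44 of the 53 uninjured cells. The median r of all ranked transcripts was -0.00073 in uninjured and 0.02 in regenerating cells, and the highest 1% began at 0.41 and 0.37. By Spearman's rank correlation the lower values of COL24A1, COL11A1, COL1A2 and CNN2 fell to 0.31, 0.30, 0.31 and 0.29. That of COL4A6 was 0.39. The cells share their library preparation, and those low in collagen enter both sides of r. For comparison, r with the summed collagens was 0.49 and 0.40, with the contractile list 0.39 and 0.41, with Frz-d 0.34 and 0.42, with reads per cell 0.15 and -0.01 and with wnt1 0.24 and -0.21.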

How the data were processed

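Single cells were profiled by Smart-seq2. The deposited table holds raw read counts of 26566 contig rows in 1 column per library, made by the authors; the submitters' notes name CASAVA 1.7.0, Trimmomatic 0.32 and Bowtie, while no source used here names the counter. A deposited table of the authors' own pole comparison (fold estimates, bounds and Z scores) was not used. The 6 rows outside that comparison (63.6% of counted reads, among them a mitochondrial row and 2 contigs) stayed out of totals. Rows of 1 contig number were summed, giving 26399 transcripts. Library pairs whose chi-square over its degrees of freedom was under 10 were summed to 1 cell (6 pairs of 9730, at 1.28 to 7.41, the next at 22.2). Cells needed 50000 reads and 500 transcripts, which left out 12; no doublet filter was applied, since cells were sorted singly. Libraries held 335 to 6473250 counted reads. Contigs of like sequence may share reads.

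CPM, Pearson's r and intervals were computed in Python 3.11.15 with numpy 2.4.6 and scipy 1.17.1, and TMM factors with edgeR 4.0.16. Log2 ratios carry 1 CPM in both terms and so understate the change of low transcripts; 19372 transcripts with 20 reads or more were counted. The scripts were tested on simulated data. The named genes are wnt11-2, wnt1, the Wnt contigs of the study's annotation, pitx, islet1, otxb-like, nr4A, follistatin, ndk, prep and the 10 transcripts most like wnt11-2. One of the latter is not reported here. The members and lists were chosen with earlier results of these data known. Alternatives were other thinning depths, read minimums, totals, scaling, pseudocount, cell filters and leaving out each cell.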

Additional observations from a re-analysis of the deposited data

Results flagged for a closer look

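Cells left out for having fewer than 50000 reads included 2 with more wnt11-2 reads than the 3 that a count of 0 allows. Uninjured non-pole replicate 23 held 8 reads among 30177, or 265 CPM (114.5 to 522), and uninjured non-pole replicate 52 held 17 reads among 12744, or 1334 CPM (777 to 2136). Both levels lie within the range of the kept non-pole cells of the uninjured tail.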

How the results depend on the processing

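No paired analysis was possible because the replicate numbers only name cells within a group in accession order and no test across samples could be run. Of the 5 kinds of result (shares, summed and mean levels, and both log2 ratios), no direction of a log2 ratio reversed under any alternative. With other totals or scaling, values moved beyond counting error. With all counted reads as the total, the summed level was 10.4, 134.8, 93.9 and 47.1 CPM in uninjured pole and non-pole and then regenerating pole and non-pole cells, and the mean of regenerating pole cells was 95.2 CPM. The log2 ratios of summed reads were then -3.58 (pole, uninjured), 0.98 (pole, regenerating), -1.50 (regenerating, non-pole) and 3.06 (regenerating, pole), and those of means 0.81 for the regenerating pole and 2.24 for regenerating against uninjured pole cells. TMM scaling gave 253.7 CPM for regenerating pole cells and 321.2 and 218.2 CPM for non-pole cells of the uninjured tail and the blastema, a log2 ratio of 0.22 for the regenerating pole and 3.54 between the pole groups, and shifted the median of all transcripts by -0.13 in the former comparison. Cells of at least 200000 reads gave 187.1 CPM in regenerating non-pole cells and a log2 ratio of -0.65 against uninjured ones. Without cells under 5000 CPM of collagen, 63.4% of uninjured non-pole cells held a read, the non-pole levels were 332.6 and 215.7 CPM, and the log2 ratio was 0.54 for the regenerating pole and -0.62 between the non-pole groups. Without non-pole cells that hold wnt1, the levels were 278.9 and 208.9 CPM and their log2 ratio -0.42. The share of regenerating non-pole cells was 53.6% when 3 reads were required and 46.6% when cells from 10000 reads were thinned to that number. Without the 3 deepest uninjured pole cells, chosen after seeing the data, the summed level was 144.4 CPM and the log2 ratios -1.01 against non-pole and 1.11 for regenerating against uninjured pole cells. Leaving out each cell in turn gave 10.1 to 31.5 CPM in uninjured pole, 262.3 to 417.1 CPM in regenerating pole, 225.5 to 316.8 CPM in uninjured non-pole and 170.2 to 210.8 CPM in regenerating non-pole cells, and 75% to 100% for the share of regenerating pole cells. The log2 ratios of summed reads then ran from -4.73 to -3.17, 0.40 to 1.07, -0.78 to -0.18 and 3.27 to 4.83. The cause of these shifts was not tested beyond what each setting removes. By Spearman's rank correlation the lower value of 6 of the 10 transcripts most like wnt11-2 fell by 0.1 or more, and 3 of the 10 stayed among the 10 highest, against 9 of 10 with thinned counts. Depth limits what can be said of cells at 0: their limits of 3 reads ran up to 55.6 CPM. Loss of the transcript before sequencing is not covered by these limits and was not tested.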
